A study of Homo sapiens with 8 samples.

Results

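Expression of 57 genes of the cell cycle and of proliferation was followed in BEAS-2B cells before, during and after nickel exposure. The genes were chosen by name, with earlier results of these data known, and each was found among the 25411 genes that the files list. They were arranged by role into 10 groups, from the D-type cyclins that start the cycle to the spindle checkpoint that closes it.

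A cell commits to division when D-type cyclins, bound to CDK4 or CDK6, phosphorylate the retinoblastoma protein RB1 and free the E2F transcription factors that it holds. E2F factors then switch on cyclin E and the genes of DNA replication, and later a second wave of genes, driven by the MuvB complex with MYBL2 and FOXM1, supplies cyclin B, the mitotic kinases and the spindle. Messages of the replication and mitosis genes are known to be abundant in dividing cells and low in resting ones, which need not hold for every gene named here. In bulk RNA a smaller share of dividing cells and less RNA in each of them cannot be told apart.

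BEAS-2B is a line of human bronchial epithelial cells, immortalised with a viral T antigen that binds RB1 and p53. RNA-Seq was available for 4 groups of 2 biological replicates. UT cells were untreated, and Ni-E cells had been grown with 100 µM NiCl2 for 6 weeks. Ni-W cells came from single nickel-exposed cells that had formed colonies, were expanded in medium free of nickel, and were used more than 6 months later. HCl3 has the treatment text of Ni-W in its labels, with no time in nickel-free medium given. By this text both populations were clones, and they are called the clones here. Whether HCl3 and Ni-W came from different founding cells is not given, so they cannot be taken as independent clones. A difference between a clone and UT cannot be told apart from one between the founding cell and the average cell of the line. Experiment numbers are given for Ni-E (experiment 2 for both libraries) and HCl3 (experiments 3 and 4) and not for the rest, so that experiment and group also cannot be told apart.

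Libraries held between 26383920 and 45692298 reads in genes. Of the markers of the labelled epithelial cells, 5 of 10 reached 1 RPKM in at least 1 library, among them the keratins KRT7, KRT8 and KRT18, whereas CDH1 stayed at or below 0.11 RPKM and KRT5, KRT14 and TP63 below 0.1. The summed RPKM of the epithelial list ran from 603 to 804 in UT and Ni-E and from 957 to 1020 in Ni-W and HCl3. Of the fibroblast markers 3 of 7 reached 1 RPKM (COL1A1, PDGFRB and COL1A2), and COL3A1, DCN and PDGFRA were below 0.1. This list summed to 189 to 414 in UT and Ni-E, 243 to 269 in Ni-W and 461 to 484 in HCl3. Most of that sum was COL1A1, with mean RPKM of 364 (UT), 257 (Ni-E), 232 (Ni-W) and 443 (HCl3), and PDGFRB ran from 10.6 to 27.9. None of the 5 airway secretory and ciliated markers and none of the 4 endothelial markers reached 1 RPKM. Of the 5 blood cell markers only CD68 did, and their sum lay between 14.4 and 21.8. The part of these levels in the results was not tested.

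Cell cycle genes were abundant. RPKM, the reads of a gene divided by gene length and library size, averaged at least 1 over the 8 libraries for 56 of the 57, and the median of these means was 65.0, against 11.9 for the 11323 genes of the whole table that averaged at least 1. PCNA, the sliding clamp of the replication fork, had the highest mean at 311 RPKM, followed by TK1 (303 RPKM), which salvages thymidine. CCND2, a D-type cyclin, was the exception, with 2 reads in all, found in 2 libraries, where up to 3 reads per library cannot be told from none. It was not tested, and the counts that follow are of the other 56, which passed the filter on low counts in each comparison.

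**Figure D1:**
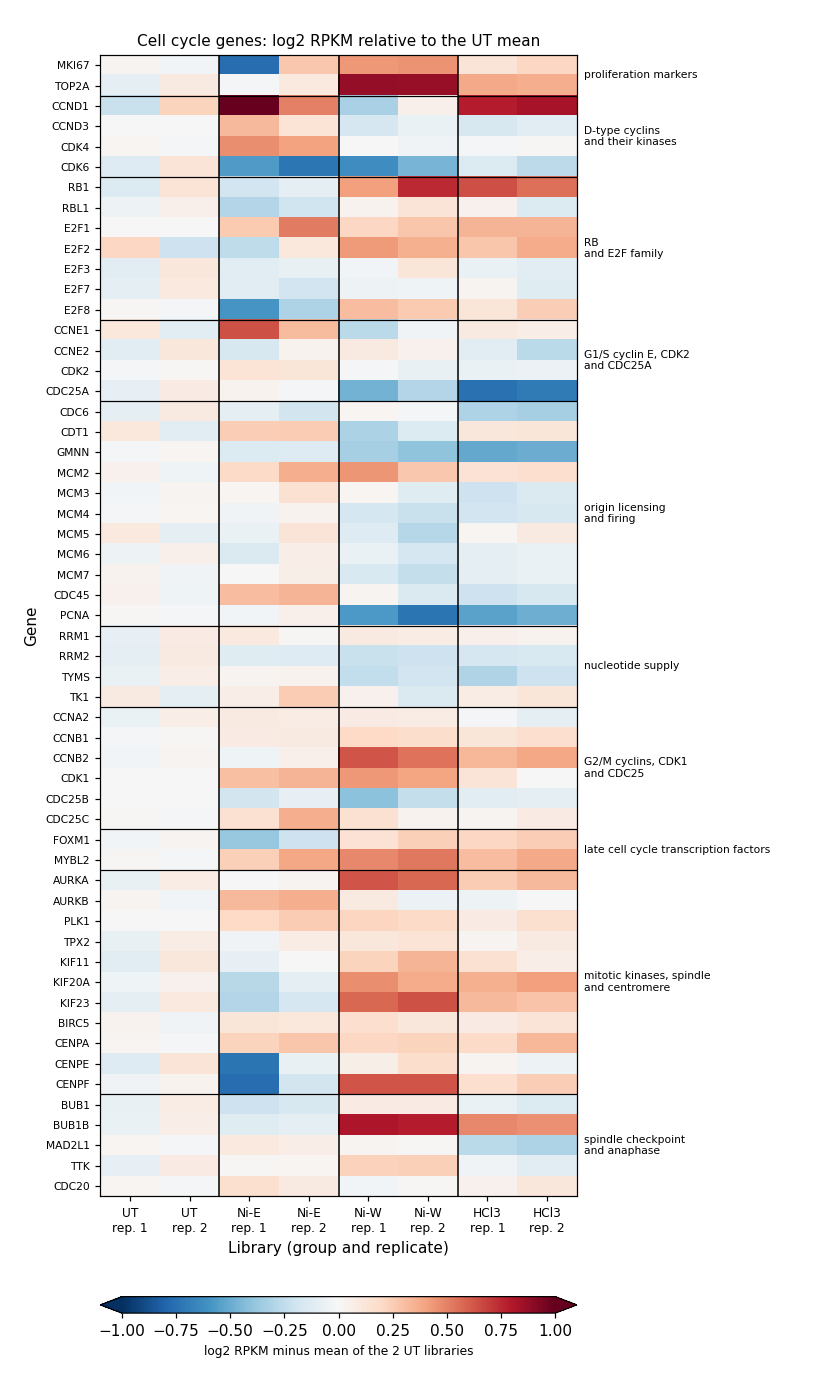
Heat map of log2 RPKM of 56 cell cycle genes in the 8 libraries (columns), each gene relative to the mean of its 2 UT libraries, in the order of their roles (right). Color covers -1 to 1 on the log2 scale. Ni-W columns are red at TOP2A, CCNB2, AURKA, KIF23, CENPF and BUB1B and blue at PCNA, and the 2 Ni-E columns differ at MKI67, CCND1 and CENPE.

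Most of these genes did not pass the test in cells under nickel. Each pair of groups was compared with DESeq2 on the read counts. A gene is said to pass at an adjusted P value under 0.05 and to be called when it also changed at least 1.5-fold. In Ni-E against UT, 1 gene passed as higher (CDK4) and 4 as lower (CDK6, E2F8, FOXM1 and CENPF). The background of all genes tested was 6.08% higher and 5.52% lower. Scaling by TMM or removal of trends with GC content and length turned this split into 2 higher and 4 lower. A fit of all 8 libraries passed 8 as higher and 9 as lower, and limma passed 0 with either pseudocount. The shares of all genes under these alternatives were not taken. Only CDK6 was called, where 5.8% of all genes were. Without UT replicate 1, UT replicate 2 or Ni-E replicate 1 at most 1 gene passed in each direction. The calls came to 5 without Ni-E replicate 2 and to 0 without UT replicate 2.

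After wash-out more of them passed, as did more of all genes tested. In Ni-W against UT, 12 were higher and 7 lower, beside a background of 17.5% and 13.6%, and 4 were called (TOP2A, CENPF and BUB1B higher, PCNA lower) beside 15.7% of all genes. HCl3 against UT gave 10 higher and 8 lower, beside 17.1% and 14.3%, and 2 calls (CCND1 higher, CDC25A lower) beside 14.8%. In both, the shares of cell cycle genes that passed lay near those of all genes, and the shares called lay below. With GC and length trends removed the split was 17 higher and 11 lower in Ni-W and 13 higher and 16 lower in HCl3. The shares of all genes under that correction were not taken, so these counts have no background beside them. All 3 of these comparisons use the same UT libraries. Without Ni-W replicate 1 or 2 the genes passing in Ni-W came to 9 higher and 2 lower or to 8 higher and 4 lower. Calls in Ni-W came to 7 without UT replicate 2 or Ni-W replicate 2. Without either HCl3 replicate, 2 higher and 3 lower passed there, and without UT replicate 1 HCl3 had 1 call, CDC25A.

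Changes between groups were small in size. The median log2 fold change of the 56 genes against UT was -0.03 (Ni-E), 0.04 (Ni-W) and 0.00 (HCl3), where the medians of all genes tested were 0.00, 0.01 and 0.01. Regardless of direction, the median size was 0.18, 0.20 and 0.15 on the log2 scale, against 0.22, 0.33 and 0.32 for all genes tested, which include many of lower level and larger error. The median standard error was 0.11, 0.10 and 0.10 for the cell cycle genes and 0.16, 0.16 and 0.15 for all genes. None of the 56 changed by 2-fold or more in Ni-W or HCl3 against UT at any P value, and only CCND1 did in Ni-E.

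**Figure D2:**
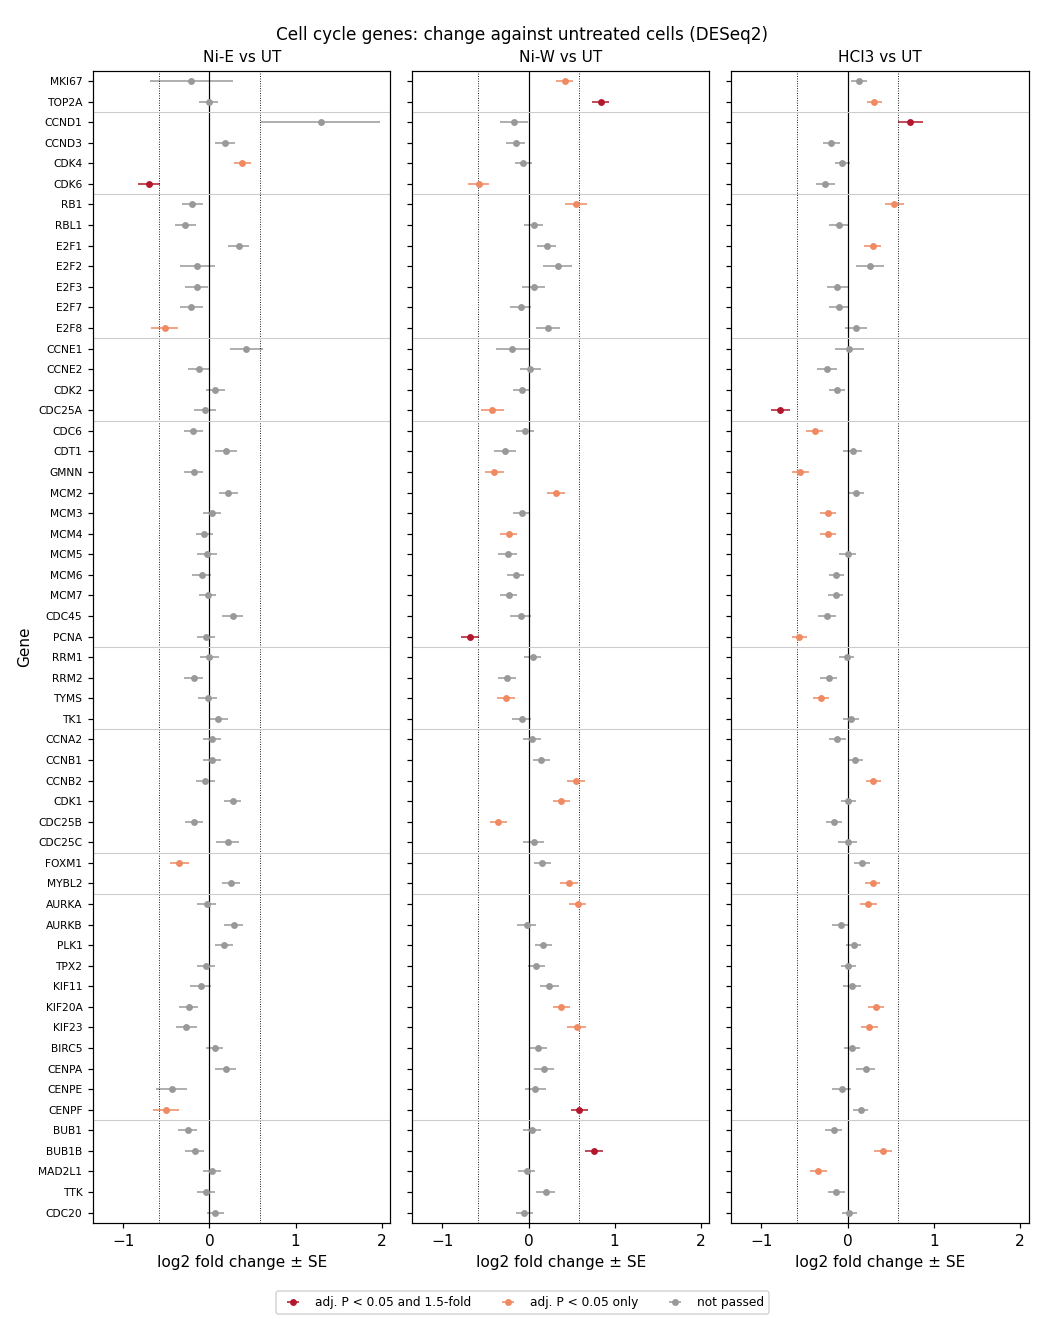
Log2 fold change with its standard error for 56 cell cycle genes against UT in Ni-E (left), Ni-W (middle) and HCl3 (right), from fits with 2 libraries per group. Dotted lines mark 1.5-fold. Dark red genes were called (1 for Ni-E, 4 for Ni-W, 2 for HCl3), orange genes passed the adjusted P value only, and grey genes did not pass. The long bars of MKI67 and CCND1 in Ni-E come with the spread of their 2 libraries.

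The washed-out cells were also compared with the exposed cells. In Ni-W against Ni-E, 15 genes were higher and 11 lower, beside 19.8% and 19.4% of all genes, and 10 were called beside 20.5%. TOP2A, RB1, E2F8, CCNB2, KIF20A, KIF23, CENPF and BUB1B were the 8 called higher, and CCNE1 and PCNA the 2 called lower. Those passing came to 11 higher and 5 lower without Ni-E replicate 1, 10 and 4 without Ni-W replicate 1, and 9 and 6 without Ni-W replicate 2. Without Ni-E replicate 2 the calls came to 14, and without Ni-W replicate 1 to 6. Between the clones, HCl3 was lower than Ni-W at 15 genes and higher at 4, beside 8.1% and 8.45% of all genes, and the only call was CCND1, higher in HCl3, beside 4.77%. Without HCl3 replicate 1 or 2, only 3 or 2 were lower and 1 higher. In limma 7 or 5 were lower and 1 or 0 higher, depending on the pseudocount.

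Replicates of Ni-E stood apart at 3 genes. MKI67, which encodes the proliferation antigen Ki-67, had 10.3 and 21.0 RPKM in the 2 Ni-E libraries, a 1.98-fold difference of normalized counts. CCND1, a D-type cyclin, differed 2.67-fold in the other direction, and CENPE, a kinesin of the centromere, 1.53-fold. In UT, Ni-W and HCl3 none of the 56 genes differed by 1.5-fold between replicates. Of all genes, 8.83% did between the UT replicates, with 8.75% (Ni-E), 4.97% (Ni-W) and 3.82% (HCl3) in the others. Differences between the UT libraries went with the GC content of the transcript across the 56 genes (Spearman's rho 0.674), and those between the HCl3 libraries the other way (-0.573). In Ni-E and Ni-W this rho was -0.0118 and 0.129. With gene length, rho was -0.531 (UT), -0.281 (Ni-E), -0.374 (Ni-W) and 0.268 (HCl3). All of these are descriptions over genes of the 2 libraries of a group.

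**Figure D3:**
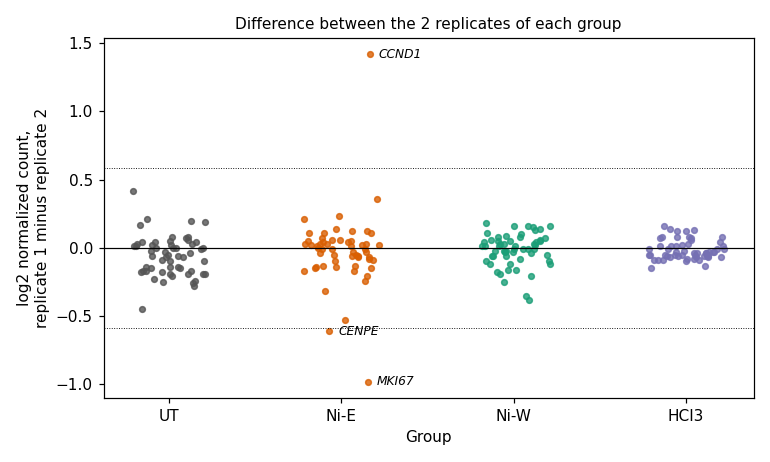
Difference between replicate 1 and replicate 2 in log2 normalized count for 56 cell cycle genes (points) in each group. Dotted lines mark 1.5-fold. MKI67 (-0.98), CCND1 (1.42) and CENPE (-0.61) lie outside the lines in Ni-E, and no gene does in the other groups.

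Among the proliferation markers, MKI67 and TOP2A both rose in Ni-W. TOP2A, the topoisomerase that untangles sister chromatids (hg19 chr17:38544773-38574202), had 152 and 172 RPKM (UT), 161 and 174 (Ni-E), 297 and 297 (Ni-W) and 210 and 208 (HCl3). Ni-W libraries thus lay above all the others and HCl3 between, while Ni-E overlapped UT. TOP2A was 0.84 ± 0.10 higher in Ni-W than in UT on the log2 scale (SE, adjusted P = 8.5e-15) and 0.31 ± 0.09 higher in HCl3 (adjusted P = 0.00398). HCl3 was below Ni-W by -0.52 (adjusted P = 4.54e-14). MKI67 had 17.8 and 17.1 RPKM (UT), 10.3 and 21.0 (Ni-E), 23.6 and 23.8 (Ni-W) and 19.0 and 20.2 (HCl3). It rose by 0.42 ± 0.10 in Ni-W (adjusted P = 0.000128) and differed from UT by 0.13 in HCl3 (adjusted P = 0.322). In Ni-E its change of -0.21 had an interval from -1.16 to 0.74.

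Among the D-type cyclins and their kinases, log2 fold changes in Ni-E ran from -0.70 to 1.29. CCND1, the cyclin D1 gene (hg19 chr11:69455873-69469242), had 9.78 and 13.2 RPKM (UT), 42.0 and 16.2 (Ni-E), 9.11 and 11.8 (Ni-W) and 19.6 and 20.1 (HCl3). Every Ni-E and HCl3 library was above the UT and Ni-W libraries, but the 2 Ni-E values lay far apart. In Ni-E the log2 fold change was 1.29 ± 0.69 (adjusted P = 0.242, interval -0.06 to 2.64), with a call in the edgeR test, which gave 2 calls where DESeq2 gave 1. In HCl3 CCND1 was 0.73 ± 0.14 above UT (adjusted P = 8.47e-07) and 0.91 ± 0.11 above Ni-W (adjusted P = 2.13e-13). In a fit of all 8 libraries these adjusted P values were 0.282 and 0.278, and without UT replicate 1 the HCl3 value was 0.53, under 1.5-fold. CCND3 ranged from 41.9 to 58.8 RPKM and passed only between Ni-W and Ni-E (-0.35, adjusted P = 0.00522).

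Of the kinases, CDK4 rose and CDK6 fell in Ni-E. CDK4 had 114 and 110 RPKM in UT and 155 and 148 in Ni-E, with 109 to 113 in Ni-W and HCl3. It rose in Ni-E by 0.38 ± 0.10 (adjusted P = 0.00518), and Ni-W was below Ni-E by -0.45 (adjusted P = 3.55e-06). The rise in Ni-E did not pass in limma. CDK6 (hg19 chr7:92234235-92465941) had 14.8 and 17.7 RPKM (UT), 10.96 and 9.81 (Ni-E), 10.6 and 11.8 (Ni-W) and 14.7 and 13.5 (HCl3). Neither Ni-E nor Ni-W overlapped UT, and both HCl3 values were below the lower UT value. Against UT it changed by -0.70 ± 0.13 in Ni-E (adjusted P = 2.32e-06) and by -0.58 ± 0.12 in Ni-W (adjusted P = 1.27e-05). Its value of -0.26 ± 0.11 in HCl3 did not pass (adjusted P = 0.0504). With GC and length trends removed the Ni-E change was -0.34 (adjusted P = 0.0131), and without UT replicate 2 it was -0.57 (adjusted P = 0.00515), both under 1.5-fold. It did not pass in limma (adjusted P = 0.0996 and 0.109 with a pseudocount of 1 and 0.1).

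Of the RB and E2F family, RB1 rose in both clones. RB1, which restrains E2F factors (hg19 chr13:48877883-49056026), had 32.0 and 38.6 RPKM (UT), 30.7 and 33.1 (Ni-E), 46.7 and 59.0 (Ni-W) and 54.8 and 51.5 (HCl3). Both clones were above each UT and Ni-E library. The increase over UT was 0.55 ± 0.13 in Ni-W (adjusted P = 0.000346) and 0.54 ± 0.11 in HCl3 (adjusted P = 8.36e-06), and Ni-W was above Ni-E by 0.73 ± 0.12 (adjusted P = 2.62e-09). The last call ended without Ni-W replicate 2.

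E2F8, a repressor E2F of late S phase (hg19 chr11:19245610-19263202), had 6.05 and 5.97 RPKM (UT), 3.99 and 4.85 (Ni-E), 7.46 and 7.21 (Ni-W) and 6.55 and 7.12 (HCl3). Ni-E was the lowest group and Ni-W the highest, with no overlap with UT on either side. It fell in Ni-E (-0.52 ± 0.16, adjusted P = 0.018) and was called higher in Ni-W than in Ni-E (0.73 ± 0.15, adjusted P = 4.38e-06). The fall in Ni-E did not pass in limma. E2F1, an activator, had 25.97 and 25.88 RPKM in UT, 31.2 and 37.2 in Ni-E, and 32.8 and 32.9 in HCl3. It passed only in HCl3 against UT (0.29, adjusted P = 0.0144), and in Ni-E its 0.34 had an adjusted P of 0.0511. RBL1, E2F2, E2F3 and E2F7 did not pass against UT in any group, with log2 fold changes from -0.28 (RBL1 in Ni-E) to 0.34 (E2F2 in Ni-W).

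At the entry to S phase the phosphatase gene CDC25A fell in both clones. CDC25A removes inhibitory phosphates from CDK2 (hg19 chr3:48198668-48229801). It had 16.2 and 18.2 RPKM (UT), 17.6 and 17.0 (Ni-E), 12.36 and 13.99 (Ni-W) and 10.2 and 10.5 (HCl3). Ni-E overlapped UT, Ni-W was lower and HCl3 lowest, with no overlap among these last 3 groups (UT, Ni-W and HCl3). The change was -0.78 ± 0.11 in HCl3 (adjusted P = 2.29e-10), a call that held under all 14 alternatives, and -0.42 ± 0.13 in Ni-W (adjusted P = 0.00427). HCl3 was also below Ni-W (-0.36, adjusted P = 0.00548).

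CCNE1, which encodes cyclin E1 (hg19 chr19:30302901-30315215), had 6.44 and 5.56 RPKM (UT), 9.32 and 7.47 (Ni-E), 4.96 and 5.84 (Ni-W) and 6.38 and 6.27 (HCl3). Both Ni-E libraries were above the rest, without passing against UT (0.43 ± 0.19, adjusted P = 0.138). Ni-W was called lower than Ni-E (-0.64 ± 0.19, adjusted P = 0.00231), and this ended with an adjusted P of 0.181 without Ni-E replicate 1 and 0.177 without Ni-W replicate 1. CDK2 and CCNE2 did not pass against UT, with changes between -0.24 and 0.07.

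Of the 11 genes that license and fire origins, none passed in Ni-E. In Ni-W 3 fell and 1 rose, beside 13.6% and 17.5% of all genes tested, and in HCl3 5 fell, beside 14.3%. Their median log2 fold change was -0.03 (Ni-E), -0.23 (Ni-W) and -0.23 (HCl3). PCNA (hg19 chr20:5095599-5107268) led this group. It had 373 and 368 RPKM (UT), 364 and 384 (Ni-E), 250 and 224 (Ni-W) and 256 and 265 (HCl3). No library of either clone reached the level of any UT or Ni-E library. The change was -0.68 ± 0.10 in Ni-W (adjusted P = 5.01e-10) and -0.56 ± 0.09 in HCl3 (adjusted P = 1.55e-09). With GC and length trends removed the Ni-W change was -0.56 (adjusted P = 5.7e-14), which is under 1.5-fold. Ni-W was also called lower than Ni-E (-0.65 ± 0.09, adjusted P = 2.47e-11), a call kept under 11 of 14 alternatives. It was lost with GC and length trends removed and without Ni-W replicate 2.

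GMNN, the inhibitor of the licensing factor CDT1, fell from 82.6 and 84.9 RPKM in UT to 66.4 and 63.5 (Ni-W) and 58.8 and 59.3 (HCl3) (-0.40, adjusted P = 0.00102, and -0.55, adjusted P = 3.07e-07). CDC6, which loads the helicase, passed only in HCl3, where it fell to 61.1 and 60.4 RPKM from 71.4 and 80.5 (-0.38, adjusted P = 0.000692), and HCl3 was below Ni-W there (-0.33, adjusted P = 5.25e-05). The 6 subunits of the MCM helicase gave different results. MCM4 fell in both clones (-0.23 each, adjusted P = 0.0476 in Ni-W and 0.0277 in HCl3) and MCM3 in HCl3 (-0.23, adjusted P = 0.0356), MCM2 rose in Ni-W (0.32, adjusted P = 0.00847), and MCM5, MCM6 and MCM7 did not pass against UT. Nor did CDT1 or CDC45, both lower in Ni-W than in Ni-E (-0.48, adjusted P = 0.000176, and -0.37, adjusted P = 0.00159). Of the 4 genes of nucleotide supply, TYMS, which makes thymidylate, fell in both clones (-0.26 in Ni-W, adjusted P = 0.0394, and -0.31 in HCl3, adjusted P = 0.00486), while RRM1, RRM2 and TK1 did not pass.

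**Figure D4:**
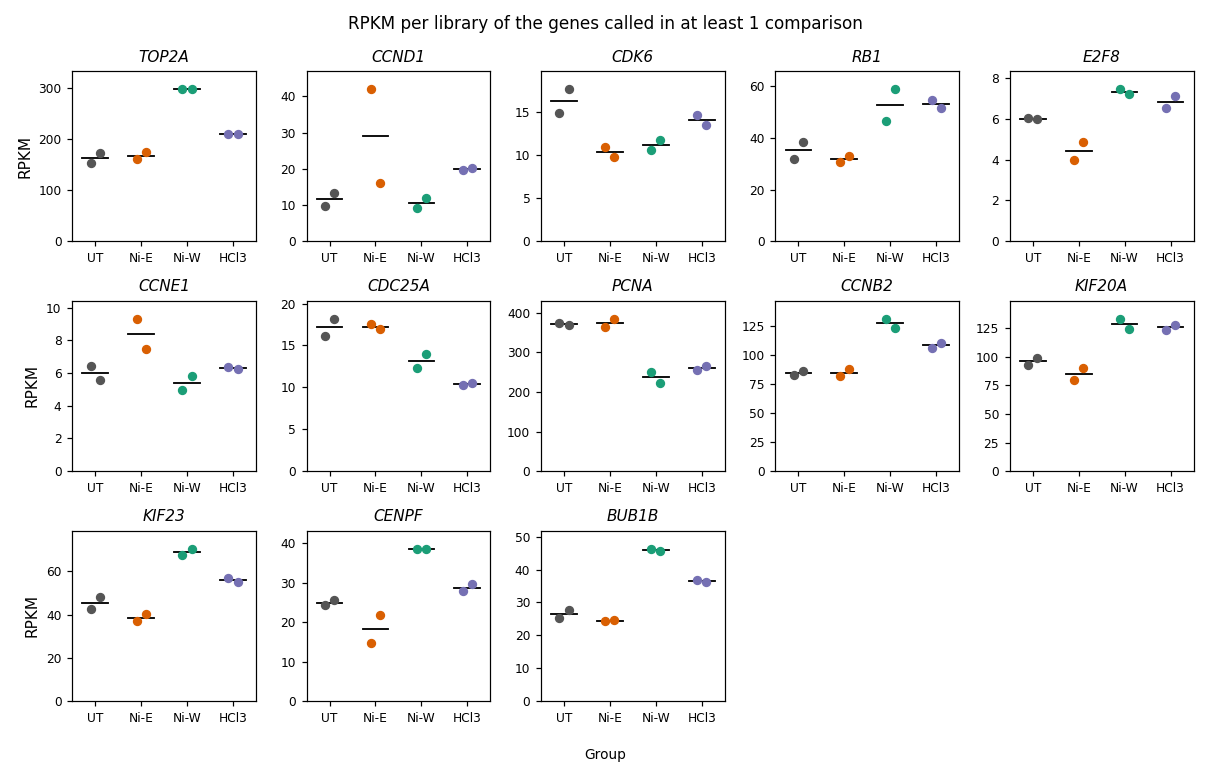
RPKM in each library (points) of the 13 cell cycle genes called in at least 1 of the 5 comparisons, with the group mean as a line and the vertical axis from 0. TOP2A, KIF23, CENPF and BUB1B are highest in both Ni-W libraries, PCNA is lower in all 4 clone libraries than in UT and Ni-E, and the 2 Ni-E libraries of CCND1 differ (42.0 and 16.2).

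At G2 and mitosis a subset of genes rose in the clones. CCNB2, a mitotic cyclin (hg19 chr15:59397284-59417244), had 82.8 and 86.1 RPKM (UT), 82.1 and 87.4 (Ni-E), 131 and 123 (Ni-W) and 106 and 110 (HCl3). Ni-W was above HCl3, and HCl3 above UT, with no overlap. It rose by 0.55 ± 0.10 in Ni-W (adjusted P = 7.89e-07) and 0.30 ± 0.09 in HCl3 (adjusted P = 0.00508). Its call in Ni-W against Ni-E (0.59 ± 0.09, adjusted P = 2.09e-09) lay at the fold threshold and was kept under 8 of 14 alternatives. CDK1, the mitotic kinase, rose in Ni-W (104 and 104 RPKM in UT, 141 and 137 in Ni-W, 0.38, adjusted P = 0.00064) but had a change of 0.01 in HCl3 (adjusted P = 0.955). In Ni-E it had 128 and 132 RPKM, above UT without passing (0.27, adjusted P = 0.0693). Its partner CCNB1 did not pass (122 and 125 RPKM in UT, 142 and 139 in Ni-W, 0.15, interval -0.03 to 0.34), nor did CCNA2 or CDC25C. CDC25B fell in Ni-W (-0.35, adjusted P = 0.00295).

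Of the late transcription factors, FOXM1 passed in Ni-E and MYBL2 in the clones. FOXM1 had 80.9 and 84.5 RPKM in UT and 63.7 and 71.8 in Ni-E, where it fell (-0.35, adjusted P = 0.0178), and from 91.5 to 98.0 in the clones, where it did not pass. The fall in Ni-E did not pass in limma. MYBL2 had 98.5 and 96.8 RPKM (UT), 115 and 127 (Ni-E), 136 and 141 (Ni-W) and 121 and 127 (HCl3). It passed in Ni-W (0.47, adjusted P = 1.11e-05) and in HCl3 (0.29, adjusted P = 0.00495) and had an adjusted P of 0.0986 in Ni-E.

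Among the 11 mitotic kinase, spindle and centromere genes, 4 rose in Ni-W and 3 in HCl3, beside 17.5% and 17.1% of all genes tested, and none fell in either clone, beside 13.6% and 14.3%. With so few genes these counts are a description. CENPF, which coats the outer kinetochore (hg19 chr1:214776532-214837914), had 24.4 and 25.5 RPKM (UT), 14.7 and 21.9 (Ni-E), 38.5 and 38.6 (Ni-W) and 27.9 and 29.6 (HCl3). All 4 groups were separate, with Ni-E lowest and Ni-W highest. It fell in Ni-E (-0.50 ± 0.15, adjusted P = 0.0124), where its libraries differed 1.44-fold, and this fall did not pass in limma. It rose in Ni-W (0.59 ± 0.10, adjusted P = 1.51e-08) and was 1.08 ± 0.13 higher in Ni-W than in Ni-E (adjusted P = 2.54e-14). The call against UT ended, at 0.52, with GC and length trends removed and, at 0.56, without UT replicate 1. That against Ni-E ended without Ni-W replicate 1 (adjusted P = 0.0638) or 2 (adjusted P = 0.0698).

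KIF23, a kinesin of the central spindle (hg19 chr15:69706585-69740766), had 42.4 and 48.3 RPKM (UT), 37.0 and 40.2 (Ni-E), 67.5 and 70.4 (Ni-W) and 56.7 and 55.2 (HCl3). Again the groups did not overlap. It rose in Ni-W (0.56, adjusted P = 1.89e-06) and HCl3 (0.25, adjusted P = 0.0389), and Ni-W was 0.82 ± 0.09 above Ni-E (adjusted P = 7.21e-18). KIF20A, a kinesin needed for cytokinesis (hg19 chr5:137514417-137523404), had 93.3 and 99.5 RPKM (UT), 79.6 and 90.7 (Ni-E), 133 and 125 (Ni-W) and 123 and 128 (HCl3). Here the clones overlapped each other and both rose (0.38, adjusted P = 0.000713, and 0.33, adjusted P = 0.0013). Ni-W was called above Ni-E (0.60, adjusted P = 1.02e-09), a call that fell under 1.5-fold without Ni-E replicate 1 (0.53), without Ni-W replicate 1 (0.56) and with GC and length trends removed (0.52). AURKA, the centrosomal kinase, rose in Ni-W to 127 and 122 RPKM from 77.8 and 86.7 (0.57, adjusted P = 5.77e-07) and in HCl3 to 98.0 and 103 (0.24, adjusted P = 0.037). AURKB, PLK1, TPX2, KIF11, BIRC5, CENPA and CENPE did not pass against UT in any group.

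Of the spindle checkpoint and anaphase genes, BUB1B stood out. It encodes the checkpoint kinase BUBR1 (hg19 chr15:40453210-40513337) and had 25.3 and 27.6 RPKM (UT), 24.2 and 24.7 (Ni-E), 46.3 and 45.6 (Ni-W) and 36.7 and 36.2 (HCl3). Ni-E was lowest without passing, and the clones were separate from UT and from each other. BUB1B rose by 0.76 ± 0.10 in Ni-W (adjusted P = 1.38e-11) and 0.41 ± 0.10 in HCl3 (adjusted P = 0.000215), and HCl3 was below Ni-W (-0.35, adjusted P = 4.58e-05). Its calls in Ni-W, against UT and against Ni-E, held under all alternatives run, as did those of TOP2A. MAD2L1, which holds back anaphase, went the other way in HCl3, from 67.7 and 66.2 RPKM in UT to 55.6 and 54.0 (-0.34, adjusted P = 0.00231). BUB1, TTK and CDC20 did not pass against UT. Of these 5 genes, 4 (BUB1, BUB1B, MAD2L1 and TTK) passed as lower in HCl3 than in Ni-W, beside 8.1% of all genes tested. This count of few genes is a description.

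Promoters of some called members are shown because many genes of this module share short elements near their starts, whether or not they changed here. E2F factors bind a core spelled TTCCCGC or, in other genes, TTCGCGC or else TTGCCGC or also TTGGCGC, MuvB complexes the CHR (TTTGAA or TTCGAA), and NF-Y the CCAAT box, with the letters CCAAT. RefSeq promoter windows of 300 bases (250 before the start and 50 from it, GRCh38.p14) were given for 45 of the 57 genes, and for a gene with several the first was taken. FOXM1, CDK2, AURKA, TPX2, TTK, CCND1, CCND2, BIRC5, E2F8, MCM4, MCM5 and CCNE2 had none. Of the 8 genes called higher in Ni-W than in Ni-E, E2F8 thus had no window and RB1 had no match in its own. Stretches of 100 bases up to the start of the other 6, with matches on either strand in capitals, read as follows.
TOP2A: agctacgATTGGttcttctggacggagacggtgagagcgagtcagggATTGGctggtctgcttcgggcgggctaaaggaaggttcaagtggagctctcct
CCNB2: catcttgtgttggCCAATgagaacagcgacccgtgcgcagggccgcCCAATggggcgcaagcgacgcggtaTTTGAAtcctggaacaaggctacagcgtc
KIF20A: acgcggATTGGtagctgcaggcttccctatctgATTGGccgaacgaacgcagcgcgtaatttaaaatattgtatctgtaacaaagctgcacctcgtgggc
KIF23: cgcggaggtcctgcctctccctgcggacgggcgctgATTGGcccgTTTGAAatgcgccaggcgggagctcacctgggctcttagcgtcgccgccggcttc
CENPF: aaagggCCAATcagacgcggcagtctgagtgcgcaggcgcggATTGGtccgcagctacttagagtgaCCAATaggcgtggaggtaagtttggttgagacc
BUB1B: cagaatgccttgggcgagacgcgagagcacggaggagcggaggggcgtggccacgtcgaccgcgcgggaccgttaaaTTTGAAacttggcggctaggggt
They lie, in this order, at chr17:40417897-40417996 (minus strand), chr15:59105046-59105145 (plus), chr5:138179012-138179111 (plus), chr15:69414249-69414348 (plus), chr1:214603095-214603194 (plus) and chr15:40160969-40161068 (plus).

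CCNB2 and KIF23 held both a CCAAT box and a CHR in this stretch, BUB1B a CHR alone, and TOP2A, KIF20A and CENPF CCAAT boxes alone. TOP2A had its CHR matches further upstream, 194 and 151 bases before the start, and CENPF its own 41 bases into the gene. For comparison, the same stretch of 2 genes that fell in the clones is given.
PCNA: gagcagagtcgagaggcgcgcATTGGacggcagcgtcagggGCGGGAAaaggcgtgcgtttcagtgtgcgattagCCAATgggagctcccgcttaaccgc
CDC25A: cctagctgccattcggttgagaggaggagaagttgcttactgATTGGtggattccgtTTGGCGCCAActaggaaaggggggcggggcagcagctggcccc
These lie at chr20:5126623-5126722 and chr3:48188418-48188517, both on the minus strand. PCNA held an E2F core and CCAAT boxes, and CDC25A a CCAAT box and a pair of overlapping E2F cores on opposite strands. Of all 34943 windows, 12.9% held an E2F core, 16.4% a CHR and 34.6% a CCAAT box. Of the 21 windows of proliferation markers and genes of G2 and mitosis, 13 held a CHR and 6 an E2F core, and of the other 24 windows 3 held a CHR and 15 an E2F core. CDK6, RB1 and CCNE1, which were also called, held none of these letters. PLK1, CENPA and CDC20, which passed in no comparison, also held a CHR and a CCAAT box in their windows. Such matches describe the sequence and were not tested for binding or set against the changes.

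Position on the chromosome was set beside the changes. For each member, the median log2 fold change of the other genes of its 10 Mb window (hg19) was taken, among genes whose normalized counts averaged 50 or more. Of the 12 members higher in Ni-W than in UT, 8 lay in windows with a median above 0.2, as did 49.8% of the 2297 genes of the same level that rose there. For the 7 members lower in Ni-W, 3 lay in windows below -0.2, beside 23.0% of 2105 genes. In HCl3 these counts were 6 of 10 (31.5%) and 3 of 8 (33.9%), and in Ni-E 0 of 1 (0.0%) and 0 of 4 (2.19%). The median of its neighbours was 0.30 for TOP2A (91 genes), 0.42 for BUB1B (86 genes), 0.42 for CCNB2 (45 genes), 0.34 for KIF23 (57 genes), 0.30 for AURKA (25 genes) and 0.42 for RB1 (36 genes), but 0.11 for CENPF (31 genes) and -0.09 for KIF20A (76 genes). Around PCNA the neighbours fell as a whole, with a median of -0.39 in Ni-W (58 genes), and around CDC25A they had -0.36 in HCl3 (95 genes). At some members that passed without a call the neighbours moved about as far as the gene, or further. In Ni-W these were MCM2 (window 0.37, gene 0.32), CDC25B (-0.40, gene -0.35) and TYMS (-0.37, gene -0.26). In HCl3 they were TYMS (-0.60, gene -0.31), MCM3 (-0.23, gene -0.23) and E2F1 (0.28, gene 0.29). By contrast, the windows of CCND1 in HCl3 (-0.05, 189 genes), of GMNN (0.10 in Ni-W and -0.04 in HCl3) and of MKI67 in Ni-W (-0.19) lay within 0.05 of 0 or on the side opposite to the gene's change. What part of each change its surroundings share was not tested.

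Other genes of the pathway, 131 in 7 lists that hold none of the members, were tested in the same fits. The lists were drawn up with earlier results of these data known. Other replication genes (33, among them ORC, GINS and polymerase subunits) had 1 higher and 1 lower in Ni-E, 1 higher and 12 lower in Ni-W, and 2 higher and 12 lower in HCl3, with medians of -0.01, -0.19 and -0.22. Those lower in Ni-W came to 3, 1 and 7 without Ni-W replicate 1, Ni-W replicate 2 and UT replicate 2, with medians from -0.22 to -0.18, and those lower in HCl3 to 4 without either HCl3 replicate. Other mitotic genes (46) had 1 higher and 5 lower in Ni-E, 18 higher and 3 lower in Ni-W, and 8 higher and 5 lower in HCl3, with medians of -0.10, 0.17 and 0.03. Those higher in Ni-W came to 9 and 11 without Ni-W replicate 1 and 2, and those higher in HCl3 to 4 and 3 without HCl3 replicate 1 and 2. In HCl3 against Ni-W 19 of the 46 were lower and 1 higher, with 8 and 5 lower without HCl3 replicate 1 and 2. Thus in Ni-W the replication list had 12 of 33 lower where 13.6% of all genes were, and the mitotic list 18 of 46 higher where 17.5% were. In HCl3 the replication list had 12 of 33 lower where 14.3% were, while the 8 of 46 higher and 5 of 46 lower of the mitotic list lay near the 17.1% and 14.3% of all genes. In HCl3 against Ni-W, 8.1% of all genes were lower and 8.45% higher. For Ni-E against UT the shares of all genes were 6.08% higher and 5.52% lower. Window medians were taken for the members and not for these lists, so what part of these counts comes with the surroundings was not tested.

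The 3 largest changes among the called genes of the mitotic list are given. NUSAP1, a spindle protein, had 68.9 and 73.7 RPKM (UT), 137 and 133 (Ni-W) and 103 and 104 (HCl3) (0.89 and 0.49, adjusted P = 1.22e-17 and 1.22e-06). CKAP2 rose in both clones (0.81 in Ni-W, adjusted P = 8.38e-12, and 0.57 in HCl3, adjusted P = 6.87e-07), and the kinesin KIF14 in Ni-W (0.77, adjusted P = 7.46e-10). In the ubiquitin lists UBE2C, the conjugating enzyme of the anaphase-promoting complex, rose in each group (0.32, 0.68 and 0.48, adjusted P = 0.0377, 2.2e-09 and 6.6e-06). SKP2, which targets CDK inhibitors for degradation, rose in Ni-W (0.67, adjusted P = 3.19e-08) and had 0.22 and 0.23 in Ni-E and HCl3 without passing. UBE2S rose in Ni-E (0.68, adjusted P = 2.65e-07) from 89.1 and 89.8 to 156 and 141 RPKM, and in HCl3 (0.35, adjusted P = 0.0318), where its libraries had 99.3 and 137 RPKM. Of the 16 genes of the anaphase-promoting complex and its partners, 2 rose in Ni-E, 3 rose and 2 fell in Ni-W, and 2 rose and 2 fell in HCl3, and of the 7 SCF and CKS genes only 2 rose, both in Ni-W. In Ni-E 6.08% of all genes rose and 5.52% fell. In the clones, 17.1% to 17.5% of all genes rose and 13.6% to 14.3% fell, so that the clone counts of the 16 genes lie near those shares. The list of 7 is too short to set beside them.

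**Figure D5:**
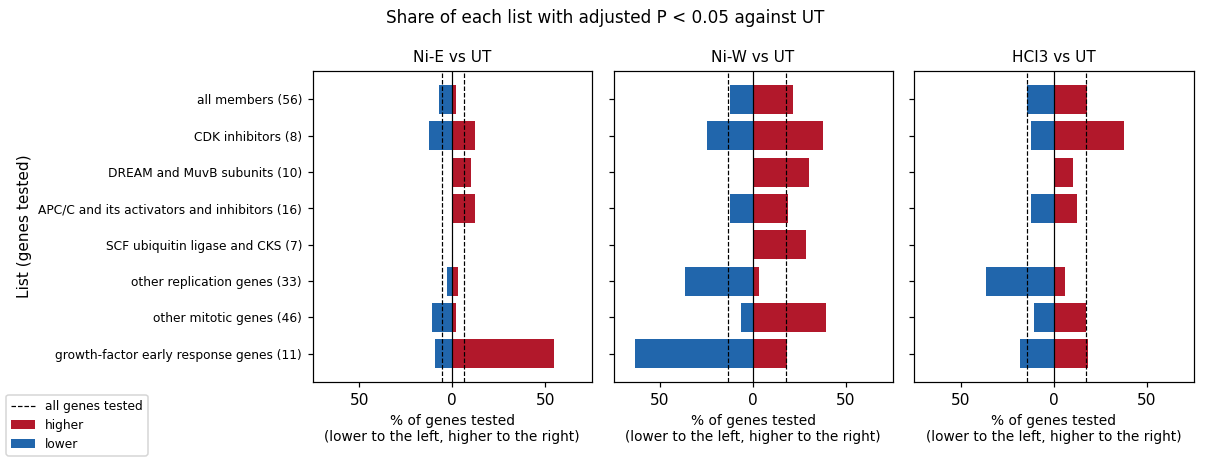
Share of the genes tested that passed as higher (red, to the right) or lower (blue, to the left) against UT, for the 56 cell cycle genes and 7 lists of other pathway genes, with the same shares of all genes tested as dashed lines. In Ni-W and HCl3 other replication genes extend to the left (12 of 33 each), and in Ni-W other mitotic genes extend to the right (18 of 46).

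Of the inhibitors of cyclin-dependent kinases, CDKN1A rose in each group. CDKN1A, the p53-induced inhibitor p21, had 25.9 and 22.9 RPKM (UT), 189 and 123 (Ni-E), 55.8 and 48.7 (Ni-W) and 62.8 and 63.0 (HCl3). No group overlapped UT, and Ni-E was highest. It was higher by 2.63 ± 0.33 in Ni-E (adjusted P = 1.02e-12), 1.06 ± 0.12 in Ni-W (adjusted P = 1.19e-16) and 1.31 ± 0.10 in HCl3 (adjusted P = 6.97e-34). CDKN2B fell in each group (-0.91, -1.71 and -1.12, adjusted P = 3.43e-06, 5.09e-44 and 7.39e-20), and CDKN2A in Ni-W (-0.77, adjusted P = 1.64e-06). CDKN1B, the inhibitor p27, did not pass, with log2 fold changes of -0.01, 0.20 and 0.11. Of the 8 inhibitors, 1 rose and 1 fell in Ni-E, 3 rose and 2 fell in Ni-W, and 3 rose and 1 fell in HCl3. The shares of all genes that rose and fell were 6.08% and 5.52%, 17.5% and 13.6%, and 17.1% and 14.3% in the same order.

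The DREAM and MuvB list (10 genes) held E2F5, a repressor E2F, which rose in each group. It had 0.42 and 0.31 RPKM (UT), 2.72 and 2.84 (Ni-E), 2.35 and 2.60 (Ni-W) and 2.14 and 1.82 (HCl3), with log2 fold changes of 2.99, 2.84 and 2.50 (adjusted P = 8.41e-12, 1.56e-11 and 2.02e-08). It was the only one of the 10 that passed in Ni-E or HCl3, and 3 passed in Ni-W, all as higher. Of all genes tested, 6.08% (Ni-E), 17.1% (HCl3) and 17.5% (Ni-W) were higher, and 5.52%, 14.3% and 13.6% lower.

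Of 11 early response genes of growth factor signalling, 6 were higher and 1 lower in Ni-E, 2 higher and 7 lower in Ni-W, and 2 higher and 2 lower in HCl3. Of all genes tested, 6.08% were higher and 5.52% lower (Ni-E), 17.5% and 13.6% (Ni-W) and 17.1% and 14.3% (HCl3), which the HCl3 counts are near. The Ni-E count fell to 1 higher without Ni-E replicate 2 and to 3 without each of the other libraries, and the Ni-W count to 3 lower without either Ni-W replicate. MYC, a transcription factor that drives growth, had 41.7 and 43.9 RPKM (UT), 58.3 and 48.4 (Ni-E), 18.1 and 19.8 (Ni-W) and 26.6 and 24.2 (HCl3). It fell in both clones (-1.21 ± 0.11 and -0.81 ± 0.10, adjusted P = 2.82e-24 and 3.21e-13), and Ni-E lay above UT without passing (0.26, adjusted P = 0.186). EGR1 rose in Ni-E (0.71, adjusted P = 0.000414) and fell in Ni-W (-0.81, adjusted P = 0.000161), and FOS, with at most 1.48 RPKM, rose in Ni-E (1.74, adjusted P = 0.000556).

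Some values may hold reads of another gene. Whether strand was used in counting was not stated, and 13 members share bases with a gene on the opposite strand, among them CDK4 (TSPAN31), CDK6 (LOC101927497), RB1 (LPAR6), PCNA (PCNA-AS1) and KIF20A (CDC23). For these the reads of the pair cannot be told apart without strand.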

How the data were processed

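RNA-Seq of BEAS-2B cells was analysed in 8 libraries, grouped by their labels. Per the study's methods, TruSeq libraries from 2 biological replicates were sequenced on a HiSeq instrument and processed in BioWardrobe: reads were aligned to hg19 with STAR (version 2.4 per the processing notes) and counted per RefSeq gene. The authors deposited raw counts and RPKM values for each library, without pooling. RPKM values scale reads by gene length and library size.

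Counts were tested in DESeq2 1.42.0 under R 4.3.3, by two-sided Wald tests after scaling to the median of ratios, with filtering at 0.1 and Benjamini-Hochberg adjustment over all genes and only the 4 libraries of a comparison in the fit. Genes passed at an adjusted P value under 0.05 and were called at 1.5-fold or more in addition, as in the study. Reads carry no molecular identifiers, and the floor of 3 reads covers counting error only. Standard errors are of log2 fold changes, intervals are 95% Wald intervals. With 2 libraries per group no permutation of 4 libraries reaches 0.05, and P values rest on a spread shared across genes.

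Members and lists were chosen with earlier results of these data known. Members called in any comparison were given per library, and from each pathway list up to 3 genes with the largest called change against UT (mean normalized count 50 or more), with CDKN1A, CDKN1B, CDKN2A, CDKN2B and MYC in any case. Alternatives were edgeR 4.0.16, limma 3.58.1 on log2 RPKM with a pseudocount of 1 or of 0.1, TMM size factors, all 8 libraries in one fit, a mean count of at least 10, no fold threshold, removal of GC and length trends (splines with 5 degrees of freedom, GC content of GENCODE transcripts, known for 98.34% of genes averaging 10 or more reads), the replicate suffix as a block, and leaving out each library. Shares of all genes tested are those of the main DESeq2 fits and were not taken under the alternatives. The tests across genes were checked on simulated data. Figures were drawn with matplotlib 3.10.9. Chromatin data and other cells of the study were not analysed here.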

Additional observations from a re-analysis of the deposited data

Results flagged for a closer look

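CCND1 was the 1 cell cycle gene whose change against UT was called in one clone and whose difference between the clones was itself called. Its log2 fold change against UT was 0.73 in HCl3 and -0.17 in Ni-W, and HCl3 lay 0.91 ± 0.11 above Ni-W (adjusted P = 2.13e-13, DESeq2), with 19.6 and 20.1 RPKM in HCl3 against 9.11 and 11.8 in Ni-W. The call between the clones was lost in limma on log2(RPKM + 0.1) (adjusted P = 0.0582) and in the fit of all 8 libraries (adjusted P = 0.278), the latter of which includes the 2 discordant Ni-E libraries. No cause was tested.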

How the results depend on the processing

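No fold change of a called member reversed under any alternative. Called members in Ni-E, Ni-W and HCl3 against UT, Ni-W against Ni-E and HCl3 against Ni-W numbered 1, 4, 2, 10 and 1. With no fold threshold they were 5, 19, 18, 26 and 19. In Ni-E against UT edgeR gave 2, and limma with either pseudocount and the GC and length correction, alone and with the replicate block, gave 0. In Ni-W against UT limma on log2(RPKM + 0.1) gave 7. The fit of all 8 libraries gave 1 in HCl3 against UT and 0 in HCl3 against Ni-W, where limma on log2(RPKM + 0.1) also gave 0. Median log2 fold changes moved by more than the replicate SD of 0.0129 in limma, with either pseudocount, to 0.02 (Ni-E against UT), 0.08 (Ni-W against UT) and -0.05 (HCl3 against Ni-W), and to 0.05 and 0.06 (HCl3 against UT), with the GC and length correction, without and with the block, to -0.03 in HCl3 against UT, and with TMM to 0.02 in Ni-W against Ni-E. Leaving out 1 library gave 0 to 5, 4 to 7, 1 to 3, 6 to 14 and 1 to 1 calls, in the same order, with medians from -0.08 to 0.02, -0.01 to 0.10, -0.05 to 0.00, 0.00 to 0.04 and -0.10 to -0.05. The cause was not tested.

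Whether the replicate suffix pairs the libraries cannot be told from these data. Across genes, same-suffix deviations correlated at r = -0.106, 0.20, -0.16, -0.107 and -0.0458 in the order above, positive only for Ni-W against UT. With the replicate block the calls were again 1, 4, 2, 10 and 1. Members that passed were then 0 higher and 2 lower, 13 and 10, 5 and 4, 14 and 8, and 1 and 9, and CDK6 did not pass in Ni-E once GC and length trends were also removed (-0.35, adjusted P = 0.122). A crossed block, added after the data were seen where r was under -0.1, gave 1, 2 and 11 in Ni-E against UT, HCl3 against UT and Ni-W against Ni-E. Where the 2 libraries of a group differ, a change is poorly bounded, as for MKI67 in Ni-E against UT (interval -1.16 to 0.74).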
